A study of Homo sapiens with 4 samples.

Results

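The BTG and TOB family of antiproliferative proteins was measured in MOLM13, an acute myeloid leukaemia cell line, 3 days after lentiviral delivery of a BTG2 cDNA or of the vector alone. The members were the rows whose gene name was BTG1, BTG2, BTG3, TOB1 or TOB2, 5 of the 11597 genes in the authors' deposited table, and each name matched 1 row. The BTG2 group held 2 libraries and the empty vector group 2 libraries. All 4 came from MOLM13 cells labelled WT in genotype, infected with a vector in which EF1α drove the insert, an IRES, puromycin resistance and the fluorescent protein ZsGreen. The labels name neither a selection nor a sort for infected cells, and they do not say whether replicates were separate cultures, so the errors may be technical. The design text names the part BTG2 plays in mRNA stability as the question.

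BTG and TOB proteins are adaptors with no known enzyme activity of their own. Their shared amino-terminal domain holds the CNOT7 and CNOT8 deadenylase subunits of the CCR4-NOT complex, which shortens poly(A) tails and so opens messenger RNA to decay. TOB1 and TOB2 also carry longer carboxy-terminal tails that bind the cytoplasmic poly(A)-binding protein PABPC1. In blood cells BTG1 and BTG2 are linked to quiescence, and both genes are recurrently mutated in B cell lymphoma.

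The sequences below show where each transcript could carry AU-rich decay signals, because the design text asks about stability and because a cDNA need not carry them. They come from GENCODE release 29 on GRCh38, which is the hg38 build named in the submitters' processing notes, and from the coding transcript with the longest coding region in each gene. The first set is the opening 30 coding bases on the sense strand, with the start codon in capitals. Reads of this region come from a cDNA and from the endogenous gene alike.
BTG2: ATGagccacgggaagggaaccgacatgctc
BTG1: ATGcatcccttctacacccgggccgccacc
BTG3: ATGaagaatgaaattgctgccgttgtcttc
TOB1: ATGcagcttgaaatccaagtagcactaaat
TOB2: ATGcagctagagatcaaagtggccctgaac
In hg38 these lie at chr1:203305607-203305636 (plus strand, exon 1), chr12:92145506-92145535 (minus, exon 1), chr21:17609115-17609144 (minus, exon 2), chr17:50863988-50864017 (minus, exon 2) and chr22:41437316-41437345 (minus, exon 2).

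The second set is the first AU-rich pentamer ATTTA after each stop codon, in capitals, with 10 bases on each side. The pentamer is the core of AU-rich elements, which recruit decay factors in many short-lived transcripts.
BTG2: atgaagagctATTTAtatatattat
BTG1: ggattatggaATTTAaaccatgtca
BTG3: ggacttgagtATTTAtatattgtgc
TOB1: ctcttacagtATTTAagatatagca
TOB2: ccggcctgtgATTTAtttggttggt
These windows lie in the 3′ untranslated region (UTR), in the last exon of each transcript, at chr1:203307530-203307554 (plus strand), chr12:92143978-92144002 (minus), chr21:17593833-17593857 (minus), chr17:50862737-50862761 (minus) and chr22:41436080-41436104 (minus). The pentamer, counted on the sense strand with overlaps allowed, occurred 2 times in the BTG2 3′ UTR, 5 times in BTG1, 3 times in BTG3, 4 times in TOB1 and 3 times in TOB2. It was present in 67.5% of the 3′ UTRs of 10407 listed coding genes, so its presence does not set the family apart.

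Per kb the members differed more. The BTG3 3′ UTR, 440 bases long, held 6.82 pentamers per kb, a density above that of 95.8% of those genes. TOB1, with 757 bases, held 5.28 per kb and stood above 91.4% of them. BTG1 (3802 bases, 1.32 per kb), TOB2 (2819 bases, 1.06 per kb) and BTG2 (2164 bases, 0.92 per kb) lay below the median density of 1.53 per kb. The GC content of the 3′ UTR was 28.9% in BTG3, 26.3% in TOB1 and 34.5% in BTG1, against a median of 42.5%. It was 46.8% in BTG2 and 48.2% in TOB2. The pentamer holds only A and T, and the part of base composition in these densities was not tested. The motif TGTANATA, the letters that Pumilio proteins recognise in RNA, was found 4 times in the BTG1 3′ UTR and 0 times in the other 4. It was present in 26.2% of the 3′ UTRs. These are letters in an annotated window and not measured sites.

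**Figure D1:**
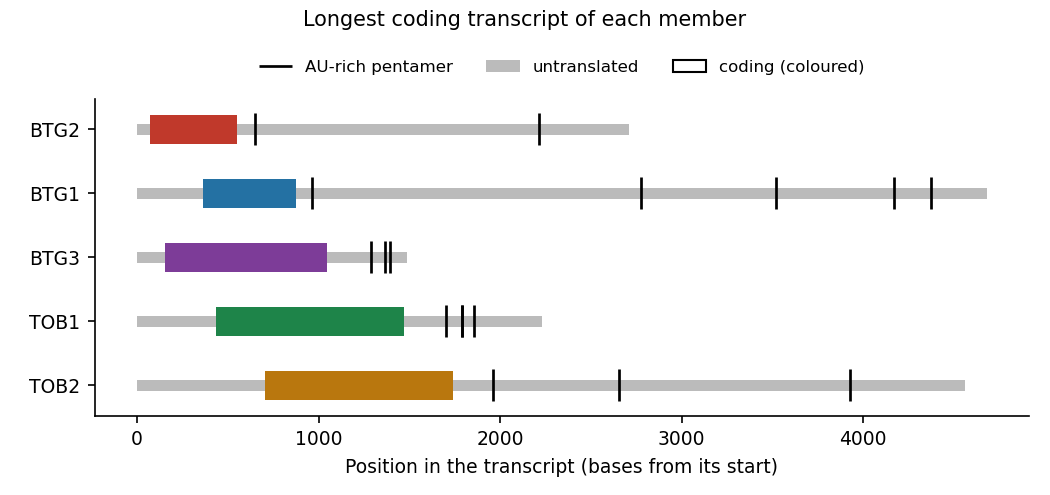
Longest coding transcript of each member, drawn to scale in bases from its start, with the coding region as a thick coloured bar, untranslated parts in grey and each AU-rich pentamer of the 3′ UTR as a black line. BTG1 has the longest 3′ UTR at 3802 bases and BTG3 the shortest at 440, and a pair of adjoining pentamers in TOB1 merges into 1 line.

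BTG2 was raised 32.3-fold in the cells given its cDNA, and BTG1 was the only other member to pass the test, being lower by 19.4%. BTG3 and both TOB genes did not pass. The test is the authors' own, a two-sided test of the log2 fold change over its standard error (SE), with p-values adjusted over all 11597 genes and a limit of 0.05. At that limit 8.11% of all genes were called, 3.64% higher and 4.47% lower with BTG2, against 1 of the 5 members higher and 1 lower. The member called higher is BTG2 itself, whose cDNA was delivered, so that call follows from the design. The call of BTG1 is 1 among the other 4 members, which is no result about the family. The median log2 fold change was -0.19 over the 5 members and 0.00 over all genes. Single-library values were not analysed here, so errors are the authors' SEs and the number of libraries showing each direction is not known. In such bulk RNA, fewer expressing cells and less RNA per cell cannot be told apart.

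BTG2, the delivered gene and the check on the labels, lies on chromosome 1 from 203305491 to 203309602 on the plus strand, with 2 exons in its coding transcript. By the authors' deposited table BTG2, ENSG00000159388.6, had a mean normalized count of 3038 over the libraries and a log2 fold change of 5.01 (SE 0.09). The 95% interval of the fold ran from 28.6 to 36.6. Its score, the fold change over its SE, was 55.2 by the authors' deposited table, and the next largest in size was 30.1, for the ribosomal protein gene RPS3. After these came ENSG00000244313.3, listed with no symbol, at 21.1, the chaperone gene CALR at -18.5, the poly(A)-binding protein gene PABPC3 at 17.4 and the serine synthesis gene PSAT1 at -15.2.

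By fold change alone BTG2 ranked 17 from the top. The 16 genes above it had a median mean count of 11.3 and a smallest SE of 1.46, so their fitted folds are imprecise. All 16 were nevertheless called higher by the authors' test. The largest log2 fold changes were 10.62 (SE 1.46) for APOO, 9.15 (SE 1.47) for OTULIN and 9.01 (SE 1.47) for SENP5, by the authors' deposited table. These 3 genes were named after their values were seen. The highest mean count among the 16 was 155, against 3038 for BTG2. Their levels in each group were not computed. How far their folds rest on very low counts in empty vector libraries was not tested, so the rank of BTG2 below them is given without a reading. Among the 5799 genes whose mean count reached the median of 151, 3 had a log2 fold change over 2, BTG2 and APOO among them. The SE of BTG2 was wide for its mean count. The 200 genes nearest to it in mean count had a median SE of 0.05, and 98.5% of them had a smaller SE than BTG2. The level of BTG2 computed below for empty vector libraries is 182, far under its mean count. The 200 genes nearest to BTG3, at a mean count of 172, had a median SE of 0.18. The width is therefore no sign that BTG2 varied unusually between libraries. The BTG2 value sums reads from the cDNA with those of the cell's own gene.

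**Figure D2:**
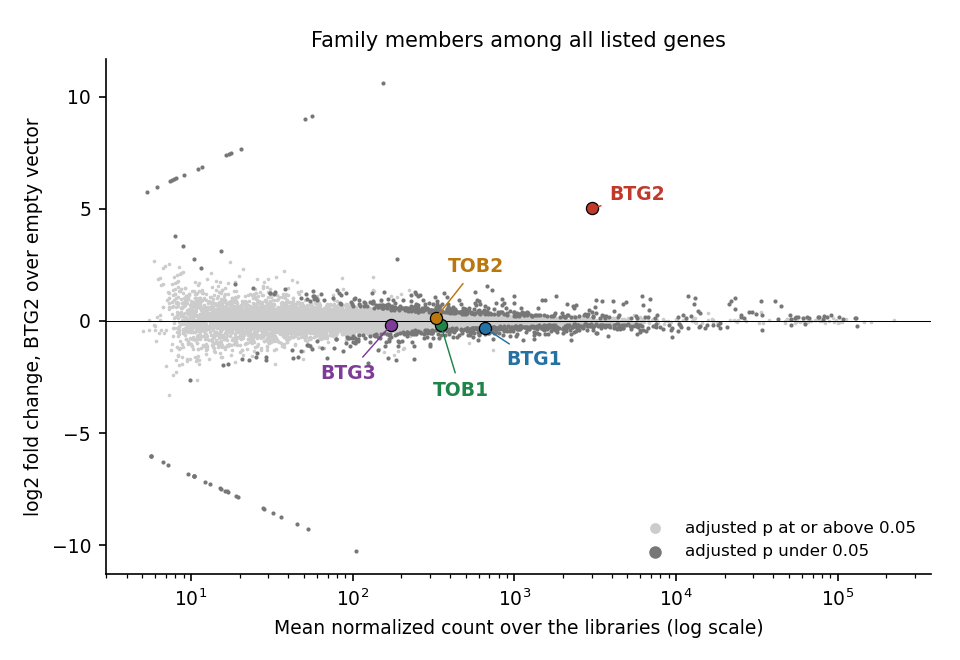
Log2 fold change, BTG2 over empty vector, against the mean normalized count on a log scale for all 11597 genes, with called genes in dark grey and the 5 members in colour. BTG2 stands far above the genes of like mean count, at 5.01 and 3038, and the other 4 members lie between -0.31 and 0.13.

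BTG1, the closest relative of BTG2 and likewise a CNOT7 and CNOT8 adaptor, was lower in BTG2 cells. BTG1 (ENSG00000133639.6; chromosome 12, 92140278 to 92145897, minus strand) had a mean normalized count of 658 and a log2 fold change of -0.31 (SE 0.09, adjusted p = 0.00856) by the authors' deposited table. As a ratio to the empty vector level this is 0.806, with a 95% interval from 0.714 to 0.909. A larger score in size was found for 602 genes, 5.19% of the table. The adjusted p ranged from 0.00498 to 1.00 over the alternatives. The call was lost with a Bonferroni adjustment and when the change was tested against an absolute log2 fold change of 0.5 (adjusted p = 1.00 in each, computed from the authors' deposited table).

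BTG3, a family member that binds and inhibits the transcription factor E2F1, was not called. BTG3 (ENSG00000154640.15; chromosome 21, 17593653 to 17612947, minus strand) had a mean normalized count of 172 and a log2 fold change of -0.19 (SE 0.20, adjusted p = 0.750) by the authors' deposited table. Its 95% interval ran from -0.59 to 0.20. With that SE a change had to reach 0.58 on the log2 scale to be called, so a fall of the size seen for BTG1 was not detectable.

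TOB1 and TOB2, the members with PABPC1-binding tails, had fold changes of opposite sign, and neither passed. TOB1 (ENSG00000141232.5; chromosome 17, 50862223 to 50867978, minus strand) had a mean normalized count of 351 and a log2 fold change of -0.19 (SE 0.12, adjusted p = 0.465), with a 95% interval from -0.43 to 0.05, by the authors' deposited table. TOB2 (ENSG00000183864.5; chromosome 22, 41433492 to 41447023, minus strand) had a mean normalized count of 327 and a log2 fold change of 0.13 (SE 0.13, adjusted p = 0.717), with an interval from -0.12 to 0.38, by the authors' deposited table. The smallest change that could be called was 0.35 for TOB1 and 0.37 for TOB2 on the log2 scale, both above the 0.31 seen for BTG1, whose own limit was 0.26.

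**Figure D3:**
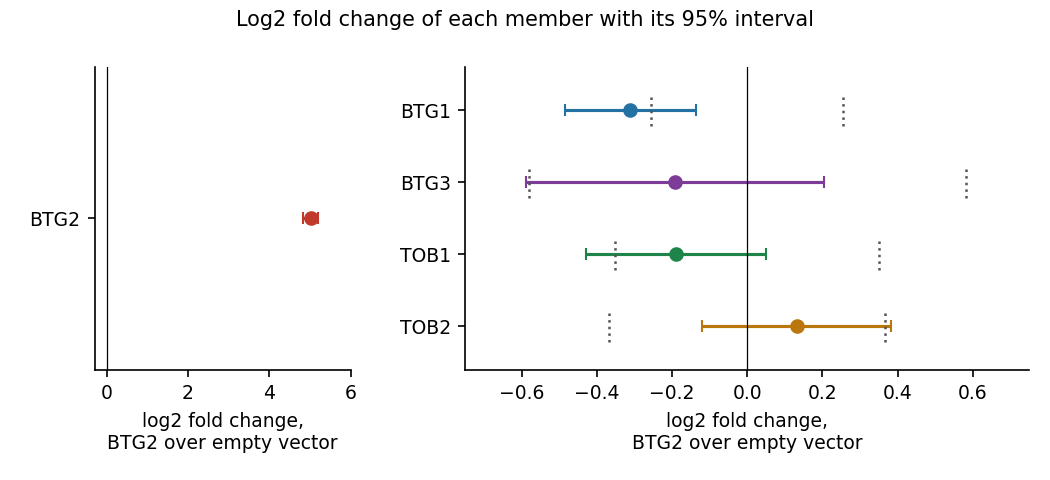
Log2 fold change, BTG2 over empty vector, of each member (point) with its 95% interval (bar), BTG2 in the left panel and the other members on a finer scale in the right one, where dotted lines mark the smallest change that could be called. BTG1 at -0.31 lies beyond its line at 0.26 in size, while BTG3, TOB1 and TOB2 lie within theirs at 0.58, 0.35 and 0.37.

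The members were then set against each other, leaving out BTG2. Differences of log2 fold changes were taken for the 6 pairs, with SEs combined as for independent genes and 95% intervals not adjusted for the number of pairs. BTG1 minus TOB2 was -0.44, with an interval from -0.75 to -0.14, and was the only 1 of the 6 whose interval left out 0. BTG1 minus BTG3 was -0.12 (interval -0.55 to 0.31) and BTG1 minus TOB1 was -0.12 (-0.42 to 0.17), so the fall of BTG1 was not separated from the values of BTG3 and TOB1. TOB1 minus TOB2 was -0.32 (-0.67 to 0.03), BTG3 minus TOB2 was -0.32 (-0.79 to 0.14) and BTG3 minus TOB1 was -0.00 (-0.47 to 0.46).

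Levels in each group can be computed from the authors' mean and fold change, if the mean weighs all 4 libraries equally and the fold is the ratio of group means. On that reading BTG2 had 5894 normalized counts in BTG2 libraries and 182 in empty vector libraries. BTG1 had 587 in BTG2 libraries and 728 in empty vector libraries, and BTG3 had 161 in BTG2 libraries and 184 in empty vector libraries. TOB1 had 328 in BTG2 libraries and 374 in empty vector libraries, and TOB2 had 342 in BTG2 libraries and 312 in empty vector libraries. The other 4 members together came to 1417 in BTG2 libraries and 1598 in empty vector libraries, a log2 ratio of -0.17. These computed levels carry no spread between libraries.

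**Figure D4:**
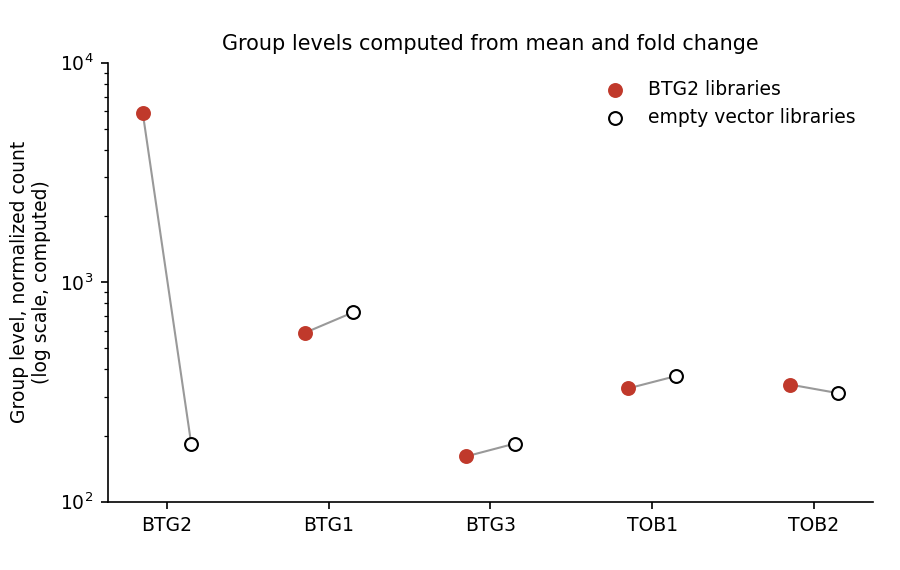
Group level of each member as a normalized count on a log scale, computed from the authors' mean and fold change, with BTG2 libraries as filled points on the left of each pair and empty vector libraries as open points on the right. BTG2 stands at 5894 against 182, and the other 4 members differ far less, the most for BTG1 at 587 against 728.

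Per kb of the annotated transcript, the order of the members depended on the group. In BTG2 libraries BTG2 led with 2173 normalized counts per kb, ahead of TOB1 (147), BTG1 (125), BTG3 (108) and TOB2 (74.9). In empty vector libraries TOB1 came first with 168 per kb, then BTG1 (156), BTG3 (124), TOB2 (68.4) and BTG2 (67.2). BTG2 thus made up 82.7% of the family's summed counts per kb in BTG2 libraries and 11.5% in empty vector libraries, and the family sum was 4.51 times as high in BTG2 libraries. Which neighbours in these orders differ could not be judged without a spread between libraries. The per-kb scale assumes reads in proportion to length and the annotated BTG2 length of 2712 bases. The cDNA's length was not given in the sources used here, and the labels' protocols describe short paired reads while the series title speaks of long ones.

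Sequence likeness bears on how reads were assigned among members. Over the coding regions, BTG2 and BTG1 were identical at 65.9% of alignment columns and TOB1 and TOB2 at 63.5%, against 36.3% to 51.1% for the other 8 pairs. Gap columns count in this measure, so unlike coding lengths lower it, as for BTG2 (477 bases) against TOB2 (1035). Over ungapped columns the first 2 pairs stood at 73.9% and 74.6%. The other 8 ran from 72.2% for BTG3 and TOB2 to 82.8% for BTG2 and TOB2, so the contrast depends on the measure. The longest run of identical bases shared by whole transcripts was 18 bases for BTG2 and BTG1, 17 for TOB1 and TOB2, and 11 to 14 for the other pairs. Only TOB1-AS1, the antisense neighbour that overlaps TOB1 by 1300 bases, was listed among the annotated genes that overlap a member. It had a mean normalized count of 10.9 and a log2 fold change of -0.22 (SE 0.66, adjusted p = 0.950) by the authors' deposited table, and use of the strand in counting was not given in the sources used here. Unlisted genes, named here for their overlap alone, were LINC01619, which overlaps BTG1 by 2637 bases on the same strand, and 2 on the opposite strand. The latter were AC025164.1, over 325 bases of BTG1, and BTG3-AS1, over 1204 bases of BTG3. How reads in these overlaps were counted was not given in the sources used here. BTG4 and the pseudogenes BTG1P1, BTG3P1 and TOB2P1 were not among the listed genes.

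Genes within 100 kb of a member on the chromosome were compared too. Of 40 such annotated genes 7 were listed, 2 beside TOB1 and 5 beside TOB2, and 0 were called by the authors' test, with 0 at an unadjusted p under 0.05. Besides TOB1-AS1 they included SPAG9 near TOB1, at a log2 fold change of 0.04, and ZC3H7B (0.06), TEF (0.28) and PHF5A (0.01) near TOB2, by the authors' deposited table. For BTG1, BTG2 and BTG3 none of the annotated neighbours was listed.

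The partners and regulators of the family were read from 6 lists of 65 genes, 60 of them listed. The calls were 4 higher and 6 lower, 16.7% of the 60 against 8.11% of all genes, with a median log2 fold change of -0.06 against 0.00 over all genes. Recentring on the median gene of at least median mean count turned the split to 5 higher and 3 lower. The calls fell in 4 of the 6 lists. The share of genes called rose with mean count. It was 4.5% of the 200 genes nearest to BTG3 in mean count and 35.5% of the 200 nearest to BTG2. With the test limited to the 5799 genes of at least median mean count, 922 were called. A share matched to the mean counts of the 60 genes was not computed. Their excess over the 8.11% of all genes is therefore no result about the lists.

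The CCR4-NOT complex, the effector that BTG and TOB proteins recruit, held no called gene among its 12 listed members. By the authors' test 0 passed, with 0 at an unadjusted p under 0.05, and the median log2 fold change was -0.09. With 8.11% of all genes called, 0 of 12 is near the background and is no result about the complex. The catalytic subunit and direct family partner CNOT7 stood at -0.11 (SE 0.10) and its paralogue CNOT8 at -0.13 (SE 0.12) by the authors' deposited table. The scaffold CNOT1 stood at -0.07 (SE 0.08), with the smallest SE of the list, so that a change of 0.23 would have been called. TNKS1BP1 (-0.29, SE 0.22), the catalytic subunit CNOT6 (0.21, SE 0.16) and CNOT10 (-0.18, SE 0.16) had the largest scores besides CNOT7 by the authors' deposited table. CNOT6L, at -0.99, carried an SE of 3.40 and gives no usable fold. CNOT1, CNOT8 and CNOT6L were named after their values were seen.

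Of the 8 deadenylases outside that complex 0 were called by the authors' test, with 0 at an unadjusted p under 0.05 and a median log2 fold change of 0.02, again near the share over all genes. PAN3, the adaptor of the PAN2 deadenylase, stood at 0.15 (SE 0.09), PAN2 itself at 0.32 (SE 0.24), PARN at -0.18 (SE 0.13) and ANGEL2 at 0.30 (SE 0.21) by the authors' deposited table.

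The poly(A)-binding proteins and their partners held the most calls for their number, 2 higher and 2 lower of 6. That is 66.7% against 8.11% of all genes, at mean normalized counts from 398 to 12850. The share called rose with mean count, so 8.11% is not a background matched to these genes. The list was also chosen with earlier results of these data known, so the share is no result about it. The median log2 fold change was -0.05. PABPC1, which coats cytoplasmic poly(A) tails and binds TOB1 and TOB2, rose by 0.48 (SE 0.10, adjusted p = 5.93e-05) and PABPC3, an intronless copy, by 0.73 (SE 0.04, adjusted p = 2.41e-64) by the authors' deposited table. Their reads can be hard to tell apart, and the mean normalized count was 12850 for PABPC3 against 2877 for PABPC1. The 2 higher calls may thus not be separate, and how reads were shared between these genes was not tested. PAIP1, which binds PABPC1 and promotes translation, stood at -0.39 (SE 0.11, adjusted p = 0.0101) and PAIP2, which displaces PABPC1 from poly(A), at -0.22 (SE 0.07, adjusted p = 0.0343) by the authors' deposited table. PABPC4 (-0.05, SE 0.07) and the nuclear PABPN1 (-0.05, SE 0.11) did not pass. PAIP2 missed the limit after that recentring (adjusted p = 0.0820) and with an empirical null (0.0542), both computed from the authors' deposited table.

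**Figure D5:**
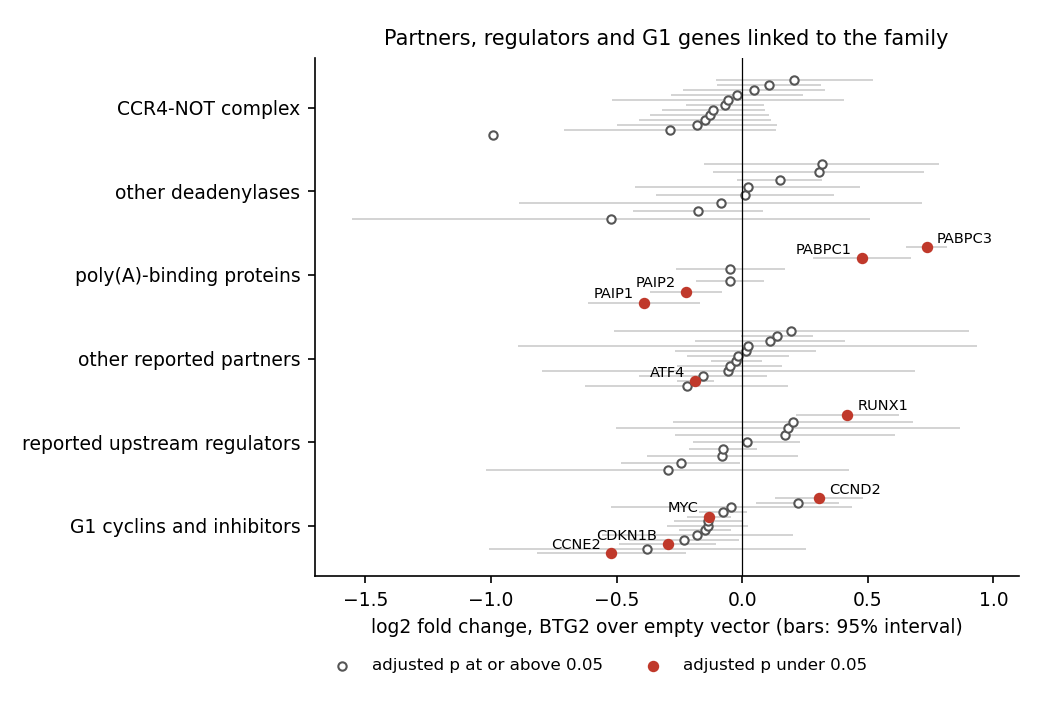
Log2 fold change, BTG2 over empty vector, of the 60 listed genes in 6 lists of family partners, regulators and G1 genes, with 95% intervals as bars and called genes filled and named. The deadenylase lists hold no filled point, while PABPC3 at 0.73 lies farthest to the right among the calls and CCNE2 at -0.52 farthest to the left. CNOT6L at -0.99 is drawn without its bar.

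Among 12 listed genes for other proteins reported to bind or modify a member, 1 fell and 0 rose, with a median of -0.02. That is 8.33% of the 12 against 8.11% of all genes, so the count is no result about the list. The gene that fell was ATF4, for the stress-response transcription factor reported to bind BTG1. It stood at -0.19 (SE 0.04, adjusted p = 4.58e-05) by the authors' deposited table. PRMT1, the arginine methyltransferase that binds BTG1 and BTG2, stood at -0.02 (SE 0.05) at a mean normalized count of 2813, where a change of 0.15 would have been called. RPS6KA1 (0.14), a kinase reported to phosphorylate TOB1, did not pass, nor did the checkpoint kinase CHEK1 (-0.22) or SMAD4 (0.11), by the authors' deposited table. PRMT1 was named for its known binding to BTG2, after its values were seen.

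Of 9 listed transcription factors reported upstream of a family gene, RUNX1 alone was called, higher by a log2 fold change of 0.42 (SE 0.10, adjusted p = 0.00156) by the authors' deposited table. NFKB1 stood at -0.24 (SE 0.12), FOXO4 at 0.20 (SE 0.24) and EGR1 at -0.30 (SE 0.37) by the authors' deposited table. The median of this list was 0.02, and 1 call of 9 is 11.1%, near the 8.11% of all genes.

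Genes of the G1 phase, where the family restrains proliferation, had negative log2 fold changes in 11 of 13 cases. Their median was -0.14, against 0.00 over all genes and -0.03 over genes of at least median mean count. The list mixes drivers with inhibitors of the cycle, and the inhibitors CDKN1A, CDKN1B and CDKN2C were negative too. The count of negative values therefore gives no direction for proliferation. The test called 3 lower and 1 higher, 30.8% of the 13 against 8.11% of all genes, a share that rose with mean count. That count is likewise no result about the list. Cyclin E2, CCNE2, which drives S phase entry, fell by 0.52 (SE 0.15, adjusted p = 0.0107), the CDK inhibitor CDKN1B by 0.30 (SE 0.10, adjusted p = 0.0356) and MYC by 0.13 (SE 0.05, adjusted p = 0.0441) by the authors' deposited table. Cyclin D2, CCND2, rose by 0.31 (SE 0.09, adjusted p = 0.0116) by the authors' deposited table. CDKN1A (-0.15), CDK6 (0.22), CDK2 (-0.23) and CDKN2C (-0.14) did not pass. Cyclin D1, CCND1, often named as repressed by BTG2 and TOB1 and given here after its values were seen, stood at -0.38 (SE 0.32) at a mean normalized count of 49.8, where only a change of 0.92 would have been called. CDKN1B and MYC missed the limit after the same recentring (adjusted p = 0.0693 and 0.158) and with an empirical null (0.0558 and 0.0671), computed from the authors' deposited table. At a limit of 0.01, with Bonferroni and in the test against 0.5, CCNE2 and CCND2 were lost as well, which left 0 calls among the G1 genes.

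The cell label was checked against markers. All 10 myeloid leukaemia markers were listed, with mean normalized counts from 71.6 for CSF1R to 6277 for LYZ, and FLT3 at 1291. Of the 10, 5 were called, 2 higher and 3 lower, against 8.11% of all genes, a share that rose with mean count. That count is likewise no result about the markers as a set. The granule enzyme MPO stood at a log2 fold change of -1.14 (SE 0.15), LYZ at -0.39 (SE 0.05), the transcription factor CEBPA at -0.26 (SE 0.05), HOXA9 at 0.53 (SE 0.17) and the receptor FLT3 at 0.23 (SE 0.07) by the authors' deposited table. SPI1 (-0.11), MEIS1 (0.33), CD33 (0.06) and CSF1R (-0.11) did not pass. Of 11 markers of T, B, epithelial, fibroblast, endothelial and erythroid cells, KRT8 (58.5) and PECAM1 (65.7) were the only ones listed. These counts are not far below that of CSF1R. The part of the marker shifts in the family values was not tested.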

How the data were processed

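Poly(A) RNA of 4 MOLM13 libraries was grouped by sample title, 2 with BTG2 and 2 with empty vector. The analysis used 1 table of the authors' own comparison with 6 numeric columns. Per the file headers, the mean column is a signal that is never negative, a normalized count averaged over the libraries by the authors. The deposited fold changes and SEs are log2 values. The deposited test statistic is a score equal to the fold change over its SE (largest difference 2.72e-07). The deposited p-value was adjusted by the authors, and a Benjamini-Hochberg adjustment over the table matched it within 1.48e-06. Per the submitters' processing notes, minimap2 and hg38 were used. Counting, normalization and the testing program were not given in the sources used here. Depth per library is unknown.

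The planned count test needs values per library and was replaced by the authors' test. Members and lists were chosen with earlier results of these data known. Named genes were the members, called list genes and up to 4 further genes per list by size of score, the 5 largest scores after BTG2, and listed neighbours within 100 kb. Genes named outside this rule are marked in the text, and a few genes under it are not reported here. Intervals are the fold change with normal 95% limits. The smallest callable change is the score of the last called gene, 2.88, times the SE. GENCODE release 29 matched 11398 listed genes (98.3%). Coding regions were aligned globally with biopython 1.88 (match 1, mismatch -1, gap opening -2, extension -0.5). The calling step was run on simulated fold changes with independent normal errors of the deposited SEs. That run checks the code alone and not the SEs themselves. Python 3.11.15, numpy 2.4.6, pandas 2.3.3, scipy 1.17.1 and matplotlib 3.10.9 were used.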

Additional observations from a re-analysis of the deposited data

How the results depend on the processing

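The 8 alternatives left each log2 fold change as it was or shifted it by at most 0.03 in size. The smallest value in size among the 5 members was 0.13, for TOB2, so none of the alternatives could turn a direction. BTG2 was called in all 8, and BTG3, TOB1 and TOB2 in none. BTG1, at -0.31, was not called in the test against a log2 change of 0.5 in size or with a Bonferroni adjustment, which left 0 members lower. The first asks for a larger change and the second is stricter by construction. The 60 partner genes gave 1 higher and 0 lower in the test against 0.5, and 2 higher and 1 lower with Bonferroni. At an adjusted p limit of 0.01, 1 was lower. Recentring on the median gene of at least median mean count, a shift of -0.03, and the empirical null each gave 3 lower. Over all genes 940 were called, against 81 in the test against 0.5, 312 with Bonferroni and 622 at 0.01. No paired analysis was possible because the table holds no values per library, and leaving out replicates could not be run for the same reason. Precision limits BTG3 most among the members, since its SE of 0.20 hides changes under 0.58.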
